A study of Mus musculus with 8 samples.

Results

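The genes described here are 8 scavenger receptors, *Marco*, *Msr1*, *Cd36*, *Olr1*, *Mrc1*, *Cd163*, *Stab1* and *Scarb1*. They were chosen by name from 24787 genes in count tables of MC38 tumors, and each was followed across marker-named cell classes and treatments. MC38 is a mouse colon carcinoma line, grown here as syngeneic tumors in C57BL/6J mice, which the study's methods give as females of 8 weeks. Each of 8 mice received saline (3 tumors), free R848 (3 tumors) or medium R848-BPD (2 tumors), and its tumor was taken 24 hours later. R848 (resiquimod) is a small agonist of Toll-like receptors 7 and 8, and the medium R848-BPD is a bottlebrush prodrug that carries R848 on a cleavable linker of intermediate release rate. Cells with and without CD45, the marker of blood-derived cells, were separated and loaded onto Seq-Well arrays with CD45+ cells in excess. Unique molecular identifiers (UMIs) let each captured transcript be counted a single time.

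Scavenger receptors are surface proteins with which macrophages bind and take up modified lipoproteins, microbes, dying cells and other polyanionic or oxidized cargo. They do not form a single gene family and are grouped by what they bind. *Marco* (macrophage receptor with collagenous structure) and *Msr1* (scavenger receptor A) are collagenous class A receptors. *Cd36* and *Scarb1* are class B receptors for long-chain fatty acids, oxidized lipids and high-density lipoprotein. *Olr1* (LOX-1) is a lectin-like receptor for oxidized low-density lipoprotein. *Mrc1* (CD206) binds mannosylated glycans, *Cd163* takes up hemoglobin bound to haptoglobin, and *Stab1* (stabilin-1) clears extracellular matrix fragments and other ligands. *Mrc1*, *Cd163* and *Stab1* are widely used as markers of alternatively activated or tissue-resident macrophages. *Marco* is known from alveolar macrophages, from the marginal zone of the spleen and as a gene induced by microbial products.

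In the GENCODE vM21 annotation of GRCm38 the members lie on 6 chromosomes. *Marco* is at chr1:120474538-120505024, *Mrc1* at chr2:14229392-14332057, *Cd36* at chr5:17781690-17888801 and *Scarb1* at chr5:125277087-125341094. *Cd163* is at chr6:124304656-124330527, *Olr1* at chr6:129485244-129507165, *Msr1* at chr8:39581685-39642673 and *Stab1* at chr14:31139013-31168641. *Mrc1* and *Cd163* are on the plus strand and the other 6 on the minus strand. The 250 bases before the RefSeq transcription start (GRCm38.p6) are printed for *Marco*, *Cd163* and *Cd36*, because these were the members called higher after medium R848-BPD. Capitals mark matches to the core of PU.1, the myeloid lineage factor (GAGGAA), and to the spacing of an NF-kB half-site pair (GGGNNNNNCC). Both motifs were searched on both strands, and matches could overlap. The *Cd36* window lies inside the gene span given above, since the RefSeq start used is not the outer end of the annotated gene.
Marco, chr1:120505025-120505274, minus strand: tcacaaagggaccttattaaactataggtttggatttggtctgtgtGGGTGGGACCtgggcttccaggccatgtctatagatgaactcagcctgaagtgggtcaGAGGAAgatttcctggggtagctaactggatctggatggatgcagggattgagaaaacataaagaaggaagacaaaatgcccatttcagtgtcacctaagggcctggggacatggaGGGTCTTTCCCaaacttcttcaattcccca
Cd163, chr6:124304401-124304650, plus strand: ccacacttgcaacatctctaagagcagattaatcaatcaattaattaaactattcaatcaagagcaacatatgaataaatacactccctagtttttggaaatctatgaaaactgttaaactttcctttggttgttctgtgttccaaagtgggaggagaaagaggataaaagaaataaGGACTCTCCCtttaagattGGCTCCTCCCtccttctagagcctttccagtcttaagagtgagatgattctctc
Cd36, chr5:17835897-17836146, minus strand: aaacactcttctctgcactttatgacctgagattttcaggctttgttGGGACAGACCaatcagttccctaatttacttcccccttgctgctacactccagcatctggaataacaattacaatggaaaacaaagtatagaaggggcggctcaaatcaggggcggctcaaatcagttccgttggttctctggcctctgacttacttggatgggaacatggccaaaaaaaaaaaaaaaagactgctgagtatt
The *Marco* window held 1 PU.1 core and 3 matches to the NF-kB spacing, the *Cd163* window held 2 and the *Cd36* window 1 of the latter. None of these windows held the AP-1 letters TGANTCA. Among 32851 windows of the same length, 23.3% held the PU.1 core, 45.8% the NF-kB spacing and 6.75% the AP-1 letters, so these matches are common and describe the windows only.

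The tumors gave 5867590 to 12422614 UMIs each, and 9886 of 10791 barcodes passed the study's limits on genes, UMIs and mitochondrial share. The median depth of these cells ranged from 3247 to 6928 UMIs across tumors. Scrublet marked 127 cells (1.28%) as doublets, which were kept, and 11 barcodes among the kept cells occurred in more than 1 library (56 cells). After 1 cluster of 358 poor-quality cells was set aside, 5231 cells were monocyte/macrophage-like, 655 dendritic cell (DC)-like, 980 NK-like, 695 T-like, 135 neutrophil-like and 1643 MC38-like. The 8 receptors were left out of the genes used for clustering. All 9 macrophage markers and all 8 monocyte markers were found in every tumor's monocyte/macrophage-like cells, summing to 16703 to 25707 and 1282 to 4597 CPM (counts scaled to a fixed library total). Saline replicate 2 stood apart from the other saline tumors in its small share of monocyte-like cells, and call counts and members that turned on it are given with and without it. In the same class the T cell markers summed to at most 19.6 CPM and the NK cell markers to at most 21.4 CPM.

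*Marco* was close to absent from monocyte/macrophage-like cells after saline or free R848 and clearly detected after medium R848-BPD. Counts were summed over the cells of a class in each tumor and are given as CPM after trimmed mean (TMM) scaling. The level was 78.8 CPM in medium R848-BPD replicate 1 (440 UMIs) and 136 CPM in replicate 2 (335 UMIs). In the free R848 tumors it was 0.240, 0.228 and 0.396 CPM, from 1 UMI in each. In the saline tumors it was 0, 0.293 and 1.57 CPM, from 0, 2 and 4 UMIs. Both medium R848-BPD tumors thus lay far above the other 6, with no overlap. One of the saline tables lists no *Marco* row, and its count was taken as 0.

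Pooled over tumors, 775 of 8114931 UMIs were *Marco* after medium R848-BPD and 3 of 10940950 after free R848, a ratio of 348 (95% counting interval 119 to 1693). Against the 6 of 13205378 UMIs after saline the ratio was 210 (96.1 to 575). Free R848 and saline gave a ratio of 0.603 (0.0977 to 2.83), so a difference between them was not detectable at this depth. These intervals cover counting error only. edgeR's quasi-likelihood fit across 10533 genes, with Benjamini-Hochberg adjustment, placed *Marco* past the threshold of 0.05 in both contrasts. However, the gene passed the low-count filter only through the medium R848-BPD tumors, so a gene so chosen had to differ, and its calls are given as a description and not as support. The fitted log2 fold changes, 8.46 ± 0.56 (SE) against free R848 and 7.77 ± 0.51 against saline, also depend on the prior count because the comparison groups hold so few UMIs. In summed counts, more transcripts per cell and more cells with the transcript cannot be told apart, so the cells themselves were counted next.

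**Figure D1:**
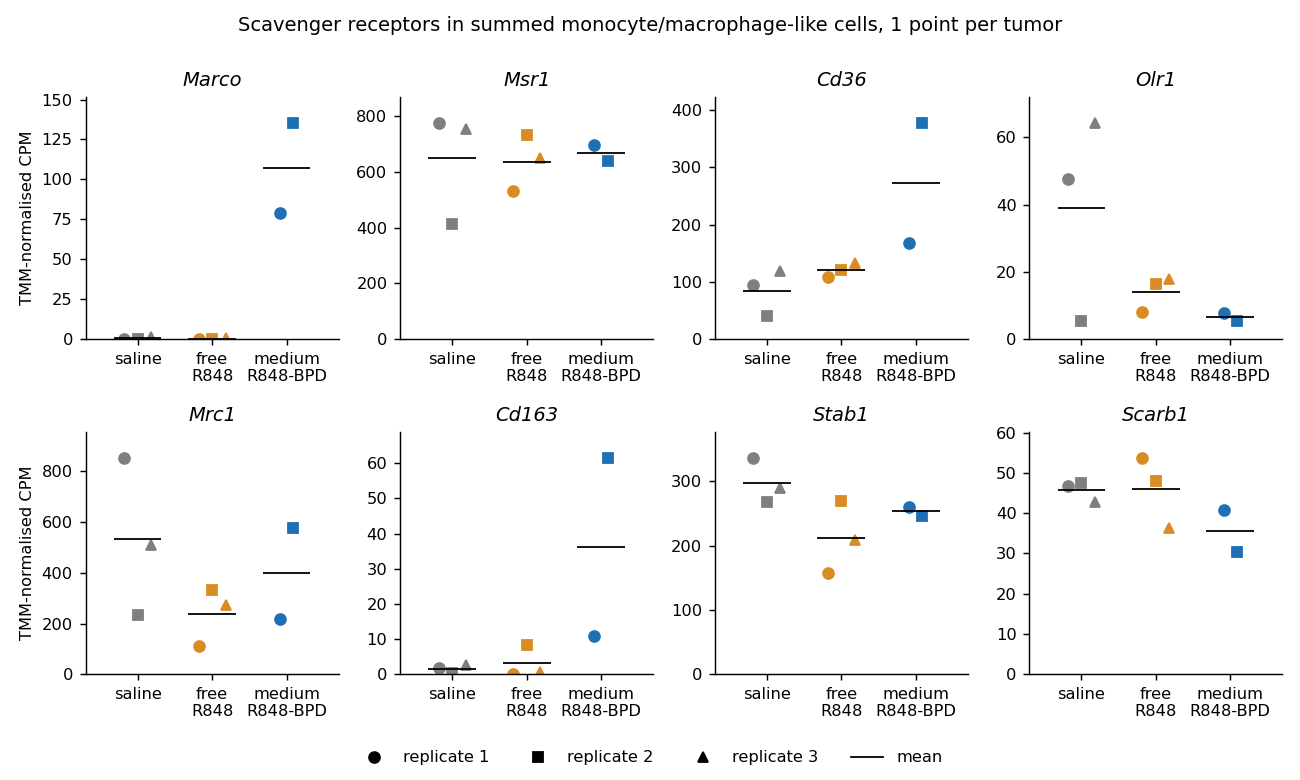
Level of each of the 8 scavenger receptors in monocyte/macrophage-like cells (vertical axes, TMM-scaled CPM from 0), with 1 point per tumor, a symbol per replicate and a line at the mean of each treatment. The medium R848-BPD points lie above all others for *Marco* (78.8 and 136 CPM), *Cd163* and *Cd36*, while *Msr1* shows no separation.

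*Marco* transcripts came from a small share of the cells. In medium R848-BPD replicate 1, 32 of 694 monocyte/macrophage-like cells (4.61%) held a *Marco* UMI, and in replicate 2 this was 29 of 495 (5.86%). The cells with most *Marco* held 96 and 121 UMIs, and the 10 highest cells of each tumor held 82.0% and 80.3% of its *Marco* UMIs. The median over positive cells was 5 UMIs in both tumors, and 6 and 5 of them held a single UMI. By contrast, a *Marco* UMI was found in 1 cell of each free R848 tumor and in 0, 2 and 1 cells of the saline tumors. Positive cells were deeper, with medians of 13014 against 5889 UMIs in replicate 1 and 7217 against 4308 in replicate 2. None of these positive cells was marked as a doublet.

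To set the shares on 1 depth, each cell was thinned to 1000 UMIs. The share with a *Marco* UMI was then 2.16% (15 of 694, 95% Wilson interval 1.31 to 3.54) and 3.03% (15 of 495, 1.84 to 4.94) in the medium R848-BPD tumors. It was 0 of 1716 cells after free R848, which allows a share of up to 0.175%, and 1 of 2313 cells after saline (0.0432%). In T-like and NK-like cells together, which should lack the gene, the thinned share was 0 of 462 after medium R848-BPD, which allows up to 0.649%. The median depths there were 6866 and 4916 UMIs, against 6030 and 4347 among the monocyte/macrophage-like cells of these tumors. The mean thinned share was 2.60 points higher than after free R848 and 2.54 points higher than after saline. The two-sided exact permutation test gave p = 0.2 for both, which is the smallest p that 2 tumors against 3 allow.

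**Figure D2:**
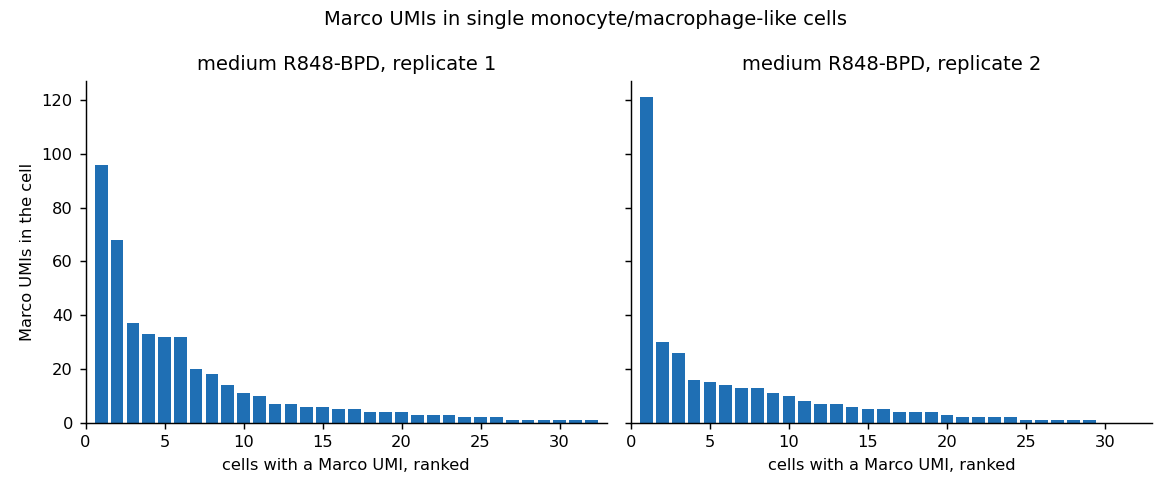
*Marco* UMIs (vertical axis) in each positive monocyte/macrophage-like cell, 1 bar per cell ranked from highest to lowest, for the medium R848-BPD tumors. The highest bars reach 96 and 121 UMIs, and the 10 highest cells hold 82.0% and 80.3% of the UMIs.

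The positive cells were spread unevenly over clusters drawn without these genes. Cluster 0, which is led by the resident-type macrophage genes *Pf4*, *Fcrls* and *Folr2*, held 16.3% of the monocyte/macrophage-like cells but 43.4% of the *Marco* UMIs in medium R848-BPD replicate 1. In replicate 2 it held 18.8% of the cells and 80.9% of the UMIs. *Marco* averaged 349 ± 226 CPM (SD, n = 2) there after medium R848-BPD, against 0.344 ± 0.597 (n = 3) after free R848 and 0 after saline. Cluster 6, led by *Mmp12* and *Pf4*, held 27.0% of the *Marco* UMIs in replicate 1 and none in replicate 2, where it had 82 cells. The monocyte-like clusters 9 and 10 held none in either tumor, although only 23 and 7 cells of the medium R848-BPD tumors fell in them. These are descriptions of where the transcripts lay and carry no test.

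**Figure D3:**
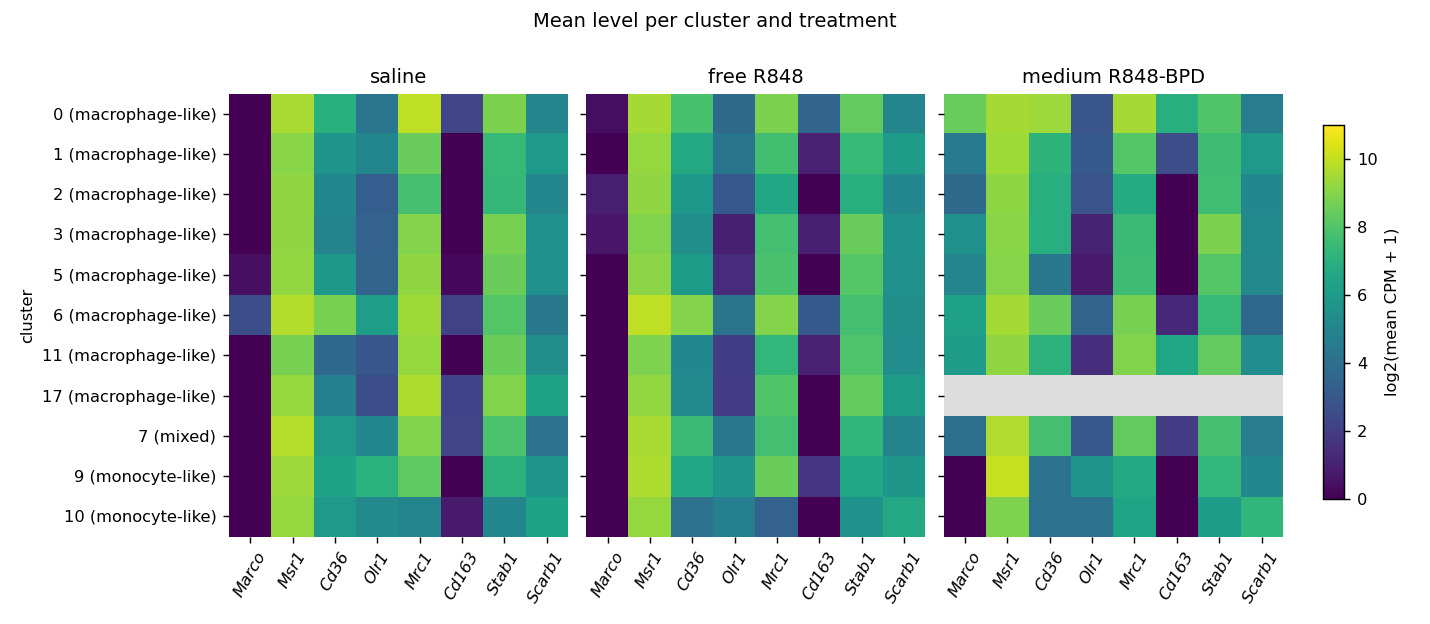
Mean level of each receptor (columns) in each monocyte/macrophage-like cluster (rows), 1 panel per treatment, with color on a log2(mean CPM + 1) scale and grey where no tumor had 10 cells. *Marco* and *Cd163* after medium R848-BPD are highest in cluster 0, at 349 and 123 CPM, and *Olr1* is highest in the monocyte-like cluster 9 in each treatment.

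Within the medium R848-BPD tumors, cells with a *Marco* UMI also held more of other receptors than cells without one. *Mrc1* stood at 698 against 178 CPM in replicate 1 and 1062 against 489 in replicate 2. *Cd36* stood at 656 against 125 CPM and 622 against 330. *Cd163* stood at 61.9 against 6.36 CPM and 365 against 26.9. All 3 were thus higher in the positive cells of both tumors. *Stab1* was higher too, narrowly in replicate 1 (271 against 264 CPM) and at 315 against 224 CPM in replicate 2. *Scarb1* went both ways, at 21.4 against 43.2 CPM and 33.2 against 28.2 CPM. *Msr1*, the other class A receptor, was at 643 against 713 CPM and 676 against 597, with no common direction. *Olr1* had 0 UMIs in the positive cells of both tumors, and stood at 8.55 and 5.47 CPM (43 and 13 UMIs) in the rest. The positive cells are few (32 and 29) and *Olr1* was low in the other cells, so this 0 lies near the floor.

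Counted as cells at full depth, 5 of the 32 positive cells of replicate 1 (15.6%) also held a *Cd163* UMI, against 0.453% of the other cells. In replicate 2 the counts were 10 of 29 (34.5%) against 4.08%. *Mrc1* was found in 78.1% and 86.2% of positive cells, against 31.7% and 42.1% of the others and 4.25% and 7.34% of the T-like and NK-like cells of these tumors. The depth gap given above moves with these shares, and its part in them was not tested. Within cluster 0 alone, *Cd163* was at 145 against 3.68 CPM in replicate 1 (13 and 100 cells) and at 482 against 131 CPM in replicate 2 (16 and 77 cells). *Cd36* was at 1419 against 228 CPM there in replicate 1, but at 947 against 859 CPM in replicate 2. *Mrc1* was at 723 against 304 CPM in this cluster in replicate 1, and at 1305 against 1023 CPM in replicate 2. In replicate 2 that gap was smaller than over the whole class.

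Macrophage markers were high in the positive cells. The 9 macrophage markers summed to 27837 CPM in positive against 18857 CPM in other cells of replicate 1, and to 20686 against 16300 CPM in replicate 2. The 8 monocyte markers went the other way, at 1226 against 2353 CPM and 1821 against 2867 CPM. The T cell markers were at 0 in the positive cells of both tumors, and the 7 endothelial markers summed to 36.3 and 29.0 CPM against 119 and 111 CPM. Some dendritic cell markers were higher in the positive cells of both tumors. The 6 markers of conventional DC type 1 summed to 263 against 209 CPM in replicate 1 and to 261 against 158 CPM in replicate 2. The 5 markers of conventional DC type 2 summed to 109 against 89.9 CPM and to 506 against 158 CPM. The 6 markers of mature DC were lower, at 17.1 against 42.4 CPM and 16.6 against 41.6 CPM. The part of these cells in the *Marco* values was not tested. Genes with at least 100 CPM in the positive cells of both tumors were ranked by the smaller of their ratios to the other cells, a rule chosen after the data were seen. The leading ones were *Fcna* (ficolin A, a secreted lectin), *Akr1b8*, *Lyve1* (a hyaluronan receptor of resident macrophages and lymphatic endothelium), *Gas6* (a ligand that bridges dying cells to phagocytes) and *Ednrb*. *Fcna* was at 143 against 13.7 CPM in replicate 1 and 257 against 44.6 CPM in replicate 2, and *Lyve1* at 156 against 10.5 CPM and 191 against 37.4 CPM. Only some positive cells held them, 8 of 32 and 17 of 29 for *Fcna* and 7 of 32 and 10 of 29 for *Lyve1*.

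*Cd163*, the hemoglobin-haptoglobin receptor, was also highest after medium R848-BPD, at a lower level than *Marco* there. It was at 10.9 and 61.5 CPM after medium R848-BPD (61 and 152 UMIs). After free R848 it was at 0.240, 8.44 and 0.792 CPM, and after saline at 1.73, 0.293 and 2.75 CPM. The medium R848-BPD tumors did not overlap with either other group, although replicate 2 lay well above replicate 1. In free R848 replicate 2, 31 of the 37 UMIs came from 1 cell. By edgeR's quasi-likelihood test *Cd163* was called higher against saline (4.73 ± 1.15, adjusted p = 0.0404) but not against free R848 (3.33 ± 1.01, adjusted p = 0.158). Without medium R848-BPD replicate 2 the change against saline was 3.01 and no longer called (adjusted p = 0.354). That fit holds 1 medium R848-BPD tumor, which is assumed to vary like the other groups.

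*Cd163* was also held by few cells, 8 of 694 and 29 of 495 after medium R848-BPD, against 0 of 353 and 1 of 109 T-like and NK-like cells of these tumors. Its level after medium R848-BPD was 123 ± 131 CPM in cluster 0 and 89.3 ± 21.8 CPM in cluster 11, a macrophage-like cluster led by complement C1q genes. In the other macrophage-like and monocyte-like clusters it was at most 5.02 CPM in that group. After thinning to 1000 UMIs, 0% and 3.03% of the cells held a UMI, so the share in replicate 1 fell within the range of the controls.

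*Cd36*, the fatty acid and oxidized lipid receptor, was found in more cells than *Marco* or *Cd163*. It was at 168 and 378 CPM after medium R848-BPD, at 109, 121 and 133 CPM after free R848, and at 93.8, 40.1 and 118 CPM after saline. Both medium R848-BPD tumors lay above all others, replicate 1 by a narrow margin. The change against saline was called (1.71 ± 0.43, adjusted p = 0.0445), and that against free R848 was not (1.17 ± 0.42, adjusted p = 0.240). Leaving out saline replicate 2, the tumor with the lowest *Cd36*, the change against free R848 was called at nearly the same size (1.16, adjusted p = 0.0365). Leaving out medium R848-BPD replicate 2, the change against saline was 1.02 and not called (adjusted p = 0.379), under the same assumption for the lone tumor. In the macrophage-like clusters alone it was 1.63 (adjusted p = 0.0652).

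At full depth 24.2% and 37.2% of cells held *Cd36* after medium R848-BPD, against 17.7 to 21.2% after free R848 and 13.3 to 15.1% after saline. In T-like and NK-like cells together the share was 1.98% and 11.9% after medium R848-BPD, 1.53 to 2.72% after free R848 and 0.717 to 5.03% after saline, so it was highest in the tumor with the highest *Cd36* in monocyte/macrophage-like cells. Thinned to 1000 UMIs, the shares were 10.1% and 20%, against 6.19 to 7.43% and 3.62 to 6.73%, again without overlap (exact two-sided permutation p = 0.2 for both, the smallest possible). The thinned shares in T-like and NK-like cells were 0.283% and 1.83% after medium R848-BPD, and 0.577% and 0.581% over the pooled cells after free R848 and saline. By cluster the values are a description without a test. In cluster 0 *Cd36* averaged 669 ± 300 CPM after medium R848-BPD (n = 2), 219 ± 19.5 CPM after free R848 and 126 ± 29.97 CPM after saline (n = 3 each). In cluster 6, whose leading genes include *Cd36*, the same groups averaged 353 ± 81.8, 502 ± 115 and 425 ± 87.5 CPM.

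Over the 8 members, edgeR called 1 higher and 0 lower between medium R848-BPD and free R848 in this class, where 1.67% of all genes tested were called. Against saline 3 were called higher and 0 lower, with 7.17% of all genes called. *Marco* is the 1 and is among the 3, under the limit of the filter given above. Between free R848 and saline 0 were called, with 0.019% of all genes called. In that contrast only 2 genes were called at all, 1206 genes had an unadjusted p under 0.05, of which the members contributed *Stab1* alone, and DESeq2 called 36 genes in all. These counts over all genes turn on single tumors. Without saline replicate 2 they rose from 176 to 606 against free R848, from 755 to 1233 against saline, and from 2 to 129 between free R848 and saline. With any other tumor left out they were 14 to 185, 87 to 686 and 1 to 3, and lowest without free R848 replicate 3 in the first and without medium R848-BPD replicate 2 in the second. The median log2 fold change of the members was 0.50 against free R848 and -0.09 against saline, and that of all genes was -0.02 and -0.01. The high values of *Marco*, *Cd163* and *Cd36* were thus not shared by the group.

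**Figure D4:**
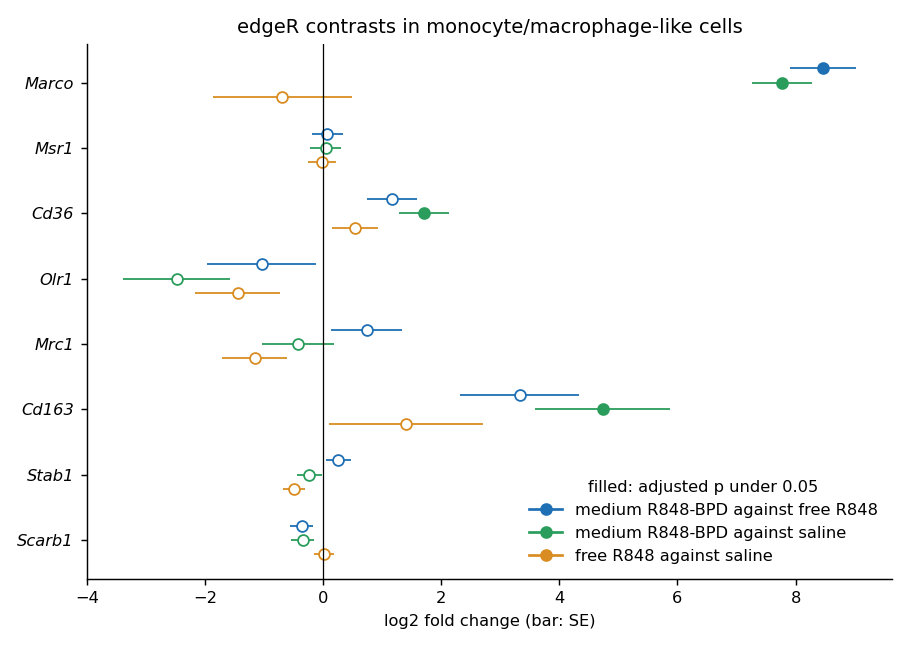
Log2 fold change (points, with bars of 1 SE on either side) of each receptor in monocyte/macrophage-like cells for the 3 contrasts, from edgeR's quasi-likelihood fit, filled where the adjusted p is under 0.05. *Marco* lies at 8.46 and 7.77 in the medium R848-BPD contrasts, and the points of *Msr1* lie at 0.07, 0.04 and -0.03.

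*Msr1*, the scavenger receptor A, was found in most cells of every tumor and was not called in any contrast. It was at 696 and 640 CPM after medium R848-BPD, at 530, 732 and 649 CPM after free R848, and at 778, 415 and 754 CPM after saline. The groups overlapped fully. The log2 difference between medium R848-BPD and free R848 was 0.07, with an approximate interval from -0.45 to 0.58, and that against saline was 0.04 (-0.47 to 0.56). A UMI was found in 73.9 to 87.2% of cells at full depth, and the 10 highest cells held 6.29 to 13.5% of the UMIs of a tumor. In T-like and NK-like cells together the share was 8.15 to 22.9%. Whether *Marco* and *Msr1*, both collagenous class A receptors, differed in their response was not tested.

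*Olr1*, the LOX-1 receptor, had its highest values after saline. It was at 47.5, 5.27 and 64.4 CPM there, at 7.91, 16.4 and 17.8 CPM after free R848, and at 7.70 and 5.26 CPM after medium R848-BPD. The medium R848-BPD tumors lay below every free R848 tumor, replicate 1 only just, while saline replicate 2 overlapped with them. The change of medium R848-BPD against saline was -2.48 ± 0.90 on the log2 scale and was not called (edgeR adjusted p = 0.133). Without saline replicate 2 it was -3.02 ± 0.36 and called (adjusted p = 0.000952), and free R848 was then also lower than saline (-2.01 ± 0.29, adjusted p = 0.0188).

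*Olr1* was higher in monocyte-like than in macrophage-like cells, at 104 ± 63.0 against 19.2 ± 12.9 CPM after saline. In cluster 9, a monocyte-like cluster with *Olr1* and *Msr1* among its leading genes by fold, it averaged 130 ± 80.6 CPM after saline and 52.2 ± 37.5 CPM after free R848. Monocyte-like cells made up 35.7%, 3.84% and 34.6% of the class in the saline tumors, 17.0%, 8.51% and 16.4% after free R848, and 3.31% and 1.41% after medium R848-BPD. The saline tumor with few monocyte-like cells was thus the one with low *Olr1*. Within macrophage-like clusters alone the medium R848-BPD difference from saline was -1.60 ± 0.76 (adjusted p = 0.219). In the macrophage-like cluster 6, *Olr1* was at 71.9 ± 2.55 CPM after saline (n = 2), 17.6 ± 12.8 after free R848 and 10.2 ± 1.55 after medium R848-BPD. The part of the monocyte-like share in the summed *Olr1* values was not tested further.

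*Mrc1*, the mannose receptor, varied widely between tumors of the same group. It was at 219 and 575 CPM after medium R848-BPD, at 112, 330 and 271 CPM after free R848, and at 850, 233 and 508 CPM after saline. All groups overlapped. The largest difference was between free R848 and saline (-1.16 ± 0.54, adjusted p = 0.466 by edgeR). In cluster 0, with *Mrc1* among its leading genes by fold, it averaged 738 ± 500 CPM after medium R848-BPD, 454 ± 199 after free R848 and 982 ± 367 after saline.

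*Stab1*, the matrix-clearing stabilin, was at 261 and 246 CPM after medium R848-BPD, at 158, 270 and 208 CPM after free R848, and at 336, 267 and 289 CPM after saline. The medium R848-BPD tumors lay below the saline tumors without overlap but within the free R848 range. The difference was small (-0.23 ± 0.21, adjusted p = 0.545 by edgeR). *Scarb1*, the receptor for high-density lipoprotein, was at 40.7 and 30.3 CPM after medium R848-BPD, at 53.7, 47.9 and 36.4 CPM after free R848, and at 46.8, 47.5 and 42.8 CPM after saline. Its differences from free R848 (-0.36 ± 0.19) and saline (-0.35 ± 0.19) were not called.

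The receptors differed in the classes that held them. *Scarb1* was highest in MC38-like cells, at 165 ± 11.6 CPM after free R848, 130 ± 9.73 after medium R848-BPD and 173 ± 8.91 after saline, and the medium R848-BPD tumors did not overlap with the others. The other 7 members were at most 25.8 CPM in MC38-like cells of any tumor. *Msr1* was also found in neutrophil-like cells, at 370 ± 78.4 CPM after free R848 and 679 ± 24.5 CPM after medium R848-BPD, from 15 to 41 cells per tumor. It was at 121 ± 49.7 to 177 ± 14.0 CPM in T-like cells. The macrophage markers summed to 3923 to 15367 CPM in the neutrophil-like cells and 1429 to 12230 CPM in the T-like cells of these tumors, and their part in the *Msr1* values was not tested. *Marco* had 0 UMIs in the T-like cells of all 8 tumors and in the neutrophil-like cells of the 5 tumors with at least 10 of them, all treated with R848. It had 1 UMI after medium R848-BPD and 1 after saline in NK-like cells, and 3 UMIs in MC38-like cells after medium R848-BPD.

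**Figure D5:**
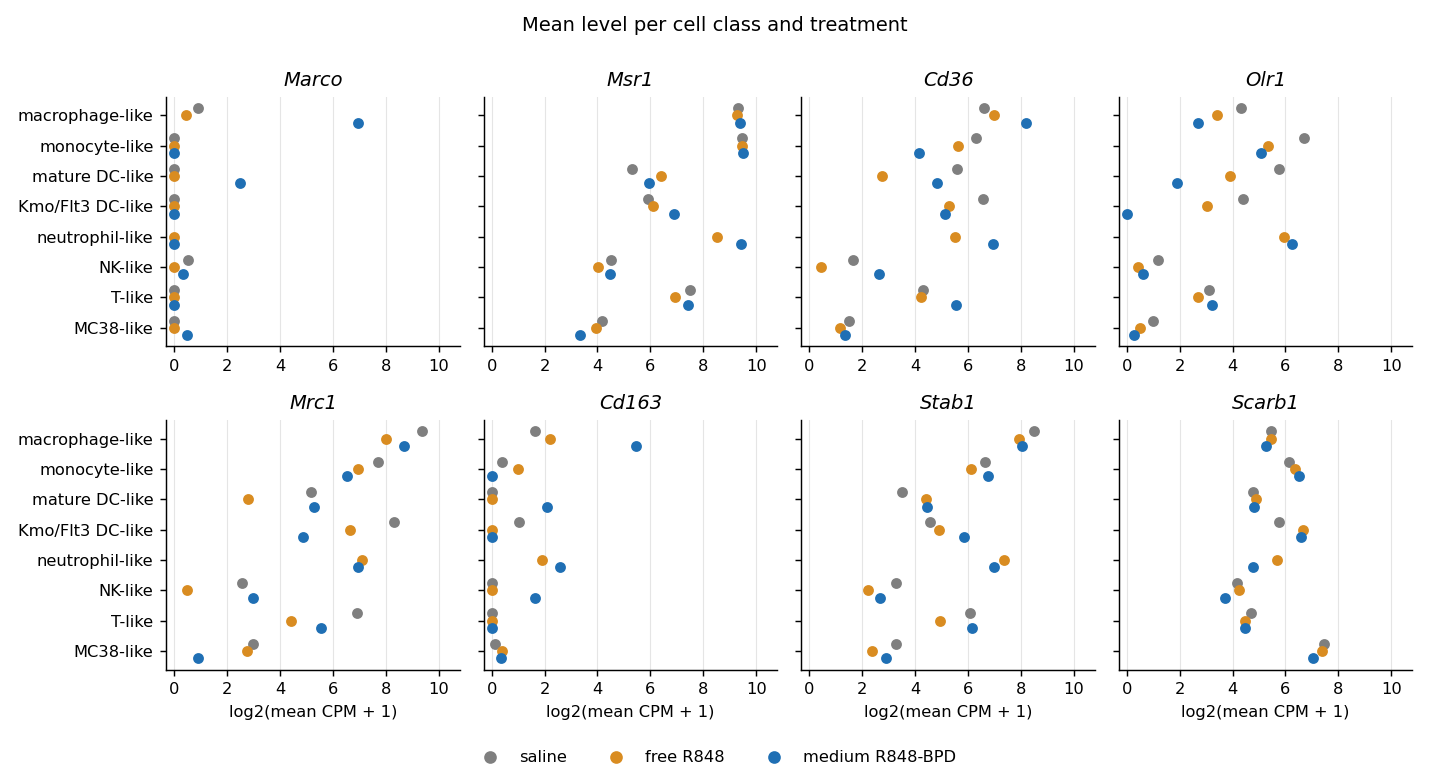
Mean level of each receptor by cell class (rows) on a log2(mean CPM + 1) axis, with 1 point per treatment where tumors had at least 10 cells of the class. *Scarb1* is highest in MC38-like cells, at 130 to 173 CPM, and *Marco* is highest in macrophage-like cells after medium R848-BPD, at 123 CPM.

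In DC-like cells *Mrc1* was the receptor called between treatments. It was at 29.0 and 42.2 CPM after medium R848-BPD, at 0, 30.2 and 62.3 CPM after free R848, and at 232, 347 and 95.01 CPM after saline. Every saline tumor lay above every R848 tumor. *Mrc1* was also higher after saline in T-like cells, without overlap. It was at 120 ± 40.1 CPM there, against 20.6 ± 18.1 after free R848 and 45.3 ± 18.8 after medium R848-BPD. In NK-like cells it was at most 9.72 CPM in any tumor. The part of such background in the DC-like values was not tested. In DC-like cells *Mrc1* was called lower against saline after medium R848-BPD (-2.68 ± 0.61, adjusted p = 0.00934) and after free R848 (-2.70 ± 0.55, adjusted p = 0.0321) by edgeR's quasi-likelihood test. Both calls were lost with DESeq2 (adjusted p = 0.146 and 0.0936) and with cells gated one by one, where the change after medium R848-BPD was -0.29. The first was also lost without medium R848-BPD replicate 1 (adjusted p = 0.127, again with a lone tumor). The second was also lost with clusters from all variable genes and without free R848 replicate 1, free R848 replicate 2 or saline replicate 1 (adjusted p = 0.0658, 0.0636, 0.0799 and 0.163). Of the 8 members 4 passed the low-count filter in this class, and 1 was called lower in each of these contrasts, where 15.4% and 2.23% of all genes were called. Between medium R848-BPD and free R848 0 members were called, and 0.702% of all genes were. With single tumors left out the calls over all genes ranged from 275 to 1131 for medium R848-BPD against saline (876 with all tumors), from 1 to 170 for free R848 against saline (127) and from 7 to 221 between the R848 treatments (40). They were lowest without medium R848-BPD replicate 1, saline replicate 1 and free R848 replicate 3, in that order of contrasts. The *Mrc1* difference between the R848 treatments was 0.02, with an approximate interval from -1.47 to 1.51.

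The make-up of the DC-like class moved with this result. A cluster led by *Kmo*, *Flt3* and *Mgl2* made up 81.7%, 75.9% and 71.7% of DC-like cells after saline, 18.6%, 46.6% and 45.7% after free R848, and 13.9% and 15.6% after medium R848-BPD. The remainder was a mature DC-like cluster led by *Ccl22*, *Il12b* and *Ccr7*. In the first of these clusters *Mrc1* was at 313 ± 171 CPM after saline (n = 3), 98.6 ± 52.0 after free R848 (n = 2) and 28.4 ± 7.40 after medium R848-BPD (n = 2, 4 UMIs in all). In the mature cluster it was at 35.1 ± 49.6, 5.91 ± 5.80 and 37.9 ± 12.6 CPM, with 26 UMIs after medium R848-BPD. Only *Msr1* among the members passed the low-count filter in that cluster, and it was not called, so *Mrc1* was not tested there. The first cluster thus had the higher level after saline and free R848 but not after medium R848-BPD. The share of the result that this mix accounts for was not tested further.

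The other testable receptors in DC-like cells gave no call. *Cd36* was at 9.16 and 46.1 CPM after medium R848-BPD, at 21.6, 30.2 and 9.35 CPM after free R848, and at 53.4, 114 and 43.8 CPM after saline, and its difference between medium R848-BPD and saline was -1.52 ± 0.62 (adjusted p = 0.114 by edgeR). *Marco* had 2 UMIs in DC-like cells, both in medium R848-BPD replicate 2, and could not be compared. In a fit with both classes and the tumor as a block, 0 of the 8 members changed differently between DC-like and monocyte/macrophage-like cells with medium R848-BPD against free R848, where 0.19% of all genes did. The intervals for *Marco* and *Cd163* in that fit were too wide to inform, and that for *Olr1* ran from -3.02 to 1.92. Only 4 of the 8 members passed the filter in DC-like cells alone.

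Genes around the receptors were taken from a list of 21 further scavenger receptors and 16 genes of lipid, heme and lysosomal handling. In monocyte/macrophage-like cells 10 of the receptors and all 16 handling genes passed the low-count filter. Between medium R848-BPD and free R848, and between free R848 and saline, 0 of them were called, where 1.67% and 0.019% of all genes were. Between medium R848-BPD and saline 0 receptors were called, 5 handling genes rose and 1 fell, with 7.17% of all genes called. The monocyte-like share of the class, given above for *Olr1*, was lower after medium R848-BPD than after saline, and its part in these changes was not tested. The median log2 fold change of the 16 handling genes was 0.63 there, against -0.01 for all genes.

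The 5 genes that rose were *Hmox1*, *Slc40a1*, *Plin2*, *Soat1* and *Nr1h3*. *Hmox1*, which breaks down heme, averaged 816 ± 439 CPM after medium R848-BPD (n = 2), 251 ± 73.2 after free R848 and 145 ± 88.5 after saline (n = 3 each), a log2 change of 2.50 against saline (edgeR adjusted p = 0.0255). *Slc40a1* (ferroportin), which exports iron, averaged 20.9 ± 6.49, 10.1 ± 6.33 and 3.60 ± 1.71 CPM (2.40, adjusted p = 0.0342). *Plin2*, which coats lipid droplets, averaged 1103 ± 240, 608 ± 142 and 315 ± 69.4 CPM (1.81, adjusted p = 0.00535). *Soat1*, which esterifies cholesterol, averaged 297 ± 59.0, 184 ± 8.80 and 191 ± 23.7 CPM (0.64, adjusted p = 0.0451). *Nr1h3*, the oxysterol-sensing factor LXR alpha, averaged 154 ± 22.1, 141 ± 47.9 and 58.3 ± 17.9 CPM (1.41, adjusted p = 0.0292). It was thus nearly as high after free R848, where the change against saline was 1.28 and not called (adjusted p = 0.280). *Lpl*, the lipoprotein lipase, fell by 2.11 on the log2 scale (adjusted p = 0.0436), from 214 ± 109 CPM after saline to 48.2 ± 25.3, and stood at 150 ± 37.2 CPM after free R848.

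Among the further receptors, *Cd5l*, a secreted scavenger protein of resident macrophages, came nearest to a call against free R848. It averaged 39.9 ± 43.1 CPM after medium R848-BPD, 0.772 ± 0.799 after free R848 and 5.57 ± 4.23 after saline, and the log2 change of 5.39 was not called (adjusted p = 0.0564). In DC-like cells 7 of the receptors and 12 of the handling genes passed the filter. Against free R848 *Abca1*, a cholesterol exporter, was called higher there after medium R848-BPD (2.54, adjusted p = 0.0316), where 0.702% of all genes were called. Against saline 6 handling genes (*Abca1*, *Fabp5*, *Hmox1*, *Lgmn*, *Npc2* and *Plin2*) rose, while *Soat1* and the receptor *Cd14* fell, with 15.4% of all genes called. *Cd14*, a co-receptor for lipopolysaccharide, fell by 1.37 on the log2 scale after medium R848-BPD (adjusted p = 0.00637) and by 1.27 after free R848 (adjusted p = 0.0312), where 2.23% of all genes were called. The change in the make-up of the DC-like class given above moves with these results too. In the mature cluster alone 132 genes were called between medium R848-BPD and saline, against 876 in the whole class, and the part of the mix in the changes named here was not tested.

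Genes most like each member across the 8 tumors were taken by Pearson's correlation of log2 CPM in monocyte/macrophage-like cells, over 6788 genes that averaged a log2 CPM of 4 or more. The tumors fall into treatments and share depth and cell mix, so these values are descriptions. For *Marco* they were *Gde1* (r = 0.986), *Sod2* (0.980), *Pitpnc1* (0.978) and *Rabac1* (0.978), over 8 tumors of which only 2 hold *Marco* above a few UMIs. For *Cd36* they were *Lamtor3* (0.986) and *Med15* (0.984), for *Cd163* *Lamp1* (0.965), for *Olr1* *Inf2* (0.986), *Fndc3b* (0.982) and *Spp1* (0.980), and for *Mrc1* *Kpna1* (0.939). For *Msr1* they were *Blcap* (0.977), for *Stab1* *Nup50* (0.959) and for *Scarb1* *Rnf187* (0.961). Among the members themselves, *Cd36* and *Cd163* (0.825), *Marco* and *Cd163* (0.815) and *Mrc1* and *Stab1* (0.804) were closest. *Cd36* and *Scarb1* ran opposite (-0.74).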

How the data were processed

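Per the labels and the study's methods, the authors aligned reads to mm10 and deposited 1 table per tumor of raw counts (UMIs of each gene in each barcode), without normalization. bcl2fastq is named in the submitters' processing notes, and the aligner is not given in the sources used here. The members and lists were chosen with earlier results of these data known.

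The study's limits were applied to cells: over 400 and under 10000 genes, under 50000 UMIs, and a mitochondrial share of 15% or less. Scrublet in scanpy 1.11.5 (expected rate 0.05) marked cells with a score above 0.25. Its automatic limit changed between runs and was replaced. Cells were clustered in Seurat 5.3.0 (R 4.3.3) with 30 principal components at resolution 0.8, then nonmalignant cells with 11 at 1.3. For the second step, 567 of 906 variable genes were used, leaving out the receptors, the wider lists and 982 genes of the study's differential expression lists. Variable genes of the first step were chosen by the mean-variance plot method after the first choice isolated no poor-quality cluster. Clusters were named from marker lists, by genes in at least 25% of cells that ranked among the 10 with the highest fold. A rule for an intermediate (mixed) cluster, number 7, scored highly for both monocyte and macrophage markers (420 cells), was added after the data were seen.

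Counts were summed per tumor and class (at least 10 cells) and tested with edgeR 4.0.16 (TMM, low-count filter, quasi-likelihood F test over all 8 tumors, Benjamini-Hochberg, 0.05). The study's own Wilcoxon test ran over cells, which are not replicates. Errors of fold changes (SE) were obtained by dividing the log2 value by the root of its F statistic. Intervals of fold changes were taken from these errors by a normal approximation. With so few tumors they are narrower than 95% intervals from the F test. All other ± are SD over tumors. Levels are TMM-scaled CPM, and those of single clusters and of cells with and without *Marco* are plain CPM of summed counts. Shares were compared after thinning each cell to 1000 UMIs, with Wilson intervals and a limit of 3 counts for a share of 0. Ratios of pooled UMIs have exact Clopper-Pearson intervals. These cover counting error only. Each tumor came from a separate mouse, and the labels name no batch.

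The text names all 8 members, called genes of the wider lists, and the genes most like each member among those averaging a log2 CPM (prior count 2) of 4 or more. The step was tested on simulated data. Alternatives were DESeq2 1.42.0, other scaling and filters, other cell sets and each tumor left out. The authors' own fold changes and enrichment results were not used. limma 3.58.1, Python 3.11.15, numpy 2.4.6, pandas 2.3.3, scipy 1.17.1 and matplotlib 3.10.9 were also used.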

Additional observations from a re-analysis of the deposited data

Results flagged for a closer look

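*Cd163* was found in the poor-quality cells that no comparison used. After free R848 these cells held 9 *Cd163* UMIs of 456382, or 19.7 CPM, against 0 of 279721 after saline. After medium R848-BPD they held 2 *Cd163* UMIs, in 2 of the 39 poor-quality cells of replicate 2. All 9 UMIs after free R848 came from 1 of the 28 poor-quality cells of free R848 replicate 2. In that tumor's monocyte/macrophage-like cells, 31 of the 37 *Cd163* UMIs also came from 1 cell.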

How the results depend on the processing

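Counts of receptors called moved most with the cells and filters used, and calls over all genes moved too. In monocyte/macrophage-like cells the main fit called 176, 755 and 2 of 10533 genes, in the order of contrasts below. With no filter these were 935, 1730 and 539 of 20337, and with cells gated one by one 106, 479 and 1 of 10212. With only the 2 treatments compared, 163 of 10390 genes were called between medium R848-BPD and saline. In monocyte/macrophage-like cells medium R848-BPD against free R848 gave 1 call, 5 with no filter on low counts, 0 in monocyte-like clusters (where *Marco* had 0 UMIs) and 1 to 2 with a tumor left out. Against saline it gave 3, but 1 with cells gated one by one, 0 in monocyte-like clusters, 1 with only the 2 treatments compared and 1 to 4 with a tumor left out. There *Cd36* turned to -2.07 in monocyte-like clusters, from 1 tumor of 23 cells (adjusted p = 0.290 by edgeR). *Cd163* kept its call against saline in 12 of 19 settings and *Cd36* in 9 of 20. Free R848 against saline gave 0, 4 with no filter and 0 to 1 with a tumor left out. In DC-like cells medium R848-BPD against free R848 gave 0, and 1 with gated cells. Against saline it gave 1, but 2 with no filter, 4 gated, 0 with DESeq2, 0 in the mature cluster (an alternative chosen after seeing the data) and 0 to 2 with a tumor left out. Free R848 against saline gave 1 there, but 2 with no filter, 0 with all variable genes, gated cells, DESeq2 or the mature cluster, and 0 to 1 with a tumor left out. Over all genes the DC-like calls were 40, 876 and 127 of 5697, in the same order. They were 257, 1146 and 441 of 15201 with no filter, and 28, 417 and 7 of 9297 gated. DESeq2 called 540 and 170 of 15201 against saline. With all variable genes free R848 against saline gave 79 of 5968. In the mature cluster the counts were 62, 132 and 19 of 3911. Only *Msr1* among the members passed the filter there, so its 0 does not bear on *Mrc1*. The cause was not tested. *Mrc1* lost its call in 3 and 6 of 18 settings.

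Same-numbered tumors did not deviate together (correlations from -0.244 to 0.210), so the numbers name tumors only. With a replicate block, medium R848-BPD against saline gave 1 call in monocyte/macrophage-like cells, where 403 of 10533 genes were called. Both contrasts with saline gave 2 in DC-like cells, where 705 (medium R848-BPD) and 188 (free R848) of 5697 genes were called. The *Marco* changes were then 9.32 and 8.62.

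The *Marco* share difference against free R848 was 1.59 points at 500 UMIs per cell, 3.48 at 2000 and 5.05 without thinning. Against saline it was 1.54, 3.49 and 5.11. Free R848 against saline was 0.0595 without thinning. Both contrasts of medium R848-BPD rest on 2 tumors of that group, and depth limits *Marco* in the other groups.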
